A study of Mus musculus with 3 samples.

Results

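Leukocyte marker genes were followed in 3 ATAC-seq libraries of a mouse study on heterotopic ossification, in which bone forms outside the skeleton. The 38 genes were listed by the blood cell lineage they are known to mark. They fell into 6 pan-leukocyte genes, 18 myeloid genes, 12 lymphoid genes and 2 genes of mast cells and blood progenitors. All 38 lie on the autosomes, and they are 38 of the 20665 autosomal protein-coding genes examined. ATAC-seq marks open chromatin, because a transposase inserts sequencing adapters where DNA is accessible. A region was a stretch around 1 or more peak summits, and it was given to the gene whose nearer end lay closest, within 50 kb. By this rule 75 of the 67219 regions belonged to the leukocyte markers. The groups were immobilized cells 7 days after injury, non-immobilized cells of the same day and cells of day 0, taken before injury, with 1 library each. All were labelled as mesenchymal stem cells of Mus musculus and made by the Omni-ATAC protocol. Strain, genotype, age and the way the cells were isolated are not given in the labels.

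Leukocytes descend from blood stem cells and carry surface receptors and signalling proteins that mesenchymal cells are not known for. The transcription factors PU.1, encoded by Spi1, and Irf8 steer myeloid cells, Pax5 holds B cell identity, and Ikaros, encoded by Ikzf1, acts early in lymphoid development. After injury, neutrophils and macrophages enter tissue and can be collected together with the stromal cells around them. In a bulk library, fewer cells of a type and less open chromatin per cell cannot be told apart.

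Each group has 1 library, so no difference could be checked against replicates and no test was made. Each interval is a 95% binomial one by the exact Clopper-Pearson method and takes in counting error alone. The libraries held 143818952 read pairs in the immobilized, 173029378 in the non-immobilized and 176119937 in the day 0 library. Duplicates made up 43.4%, 42.0% and 60.2% in that order. The deposited lists held 67404, 47912 and 51722 summits, and each was reduced to its 47912 best-scoring ones. Absence of a region means that no summit passed, not that the chromatin was closed. The mesenchymal label could be set against 15 mesenchymal genes, among them Pdgfra, Prrx1 and Col1a1. All 15 had a region in the immobilized and day 0 libraries, and 12 had one in the non-immobilized library. Their mean was 3.67, 3.93 and 4.67 regions per gene in the immobilized, non-immobilized and day 0 libraries. The leukocyte markers averaged 1.32, 1.39 and 1.11 regions per gene, and all genes 1.81, 1.78 and 1.75. A set of 10 endothelial genes averaged 3.7, 6.2 and 2.5, and a set of 7 keratinocyte genes 5.14, 1.43 and 1.29. The mesenchymal mean was thus the highest of these at day 0 and not in either day 7 library.

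Among the leukocyte markers with a listed promoter window, few had a summit at the start. RefSeq promoter windows of build GRCm38.p6, the assembly of mm10, were matched by symbol to 28 of the 38 genes. Not matched, and so outside the promoter shares, were Spi1, Cd14, Csf1r, Tyrobp, Lyn, Cd2, Adgre1, Cd4, Cd79b and Ms4a1. Of these, Spi1, Cd14 and Lyn had 2 regions each and Tyrobp 1 within 1 kb of a gene end, among the 15 such regions of all 38 genes. Each window runs from 250 bases before a transcription start to 50 after it. The windows of 7 genes are given here, because they cover the patterns seen: a summit in the window in all 3 libraries (Irf8), a summit at the start in all 3 but in the window in the day 7 libraries alone (Coro1a), in both day 7 libraries and not at day 0 (Kit, Cd68), in the immobilized library alone (S100a8), and in none (Cd3e, Cd79a). Capitals mark GAGGAA, a core sequence bound by PU.1 and related Ets factors, on either strand, so that TTCCTC is the same match read from the other strand, and the windows of Irf8 and Coro1a hold none. The windows lie at chr8:120736108-120736407 on the plus strand (Irf8), chr7:126704767-126705066 on the minus strand (Coro1a), chr5:75574737-75575036 on the plus strand (Kit), chr11:69666121-69666420 on the minus strand (Cd68), chr3:90668821-90669120 on the plus strand (S100a8), chr9:45009562-45009861 on the minus strand (Cd3e) and chr7:24897247-24897546 on the plus strand (Cd79a). All are written 5′ to 3′ along the gene.
Irf8: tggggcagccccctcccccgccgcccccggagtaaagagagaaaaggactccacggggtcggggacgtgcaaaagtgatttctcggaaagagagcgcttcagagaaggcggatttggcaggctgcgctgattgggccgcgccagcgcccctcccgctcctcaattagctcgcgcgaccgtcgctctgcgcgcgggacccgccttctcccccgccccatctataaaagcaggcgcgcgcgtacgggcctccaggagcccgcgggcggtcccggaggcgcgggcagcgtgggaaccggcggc
Coro1a: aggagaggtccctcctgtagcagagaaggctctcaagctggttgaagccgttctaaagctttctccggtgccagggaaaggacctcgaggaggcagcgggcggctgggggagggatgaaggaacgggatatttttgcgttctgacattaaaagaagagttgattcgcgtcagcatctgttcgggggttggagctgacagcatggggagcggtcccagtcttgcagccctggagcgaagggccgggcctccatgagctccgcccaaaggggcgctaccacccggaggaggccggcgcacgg
Kit: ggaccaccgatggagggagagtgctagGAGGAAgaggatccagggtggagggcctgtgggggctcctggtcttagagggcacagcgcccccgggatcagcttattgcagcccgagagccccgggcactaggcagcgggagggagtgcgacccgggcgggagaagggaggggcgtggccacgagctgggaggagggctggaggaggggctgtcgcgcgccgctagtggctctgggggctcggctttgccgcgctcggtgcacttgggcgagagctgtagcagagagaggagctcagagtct
Cd68: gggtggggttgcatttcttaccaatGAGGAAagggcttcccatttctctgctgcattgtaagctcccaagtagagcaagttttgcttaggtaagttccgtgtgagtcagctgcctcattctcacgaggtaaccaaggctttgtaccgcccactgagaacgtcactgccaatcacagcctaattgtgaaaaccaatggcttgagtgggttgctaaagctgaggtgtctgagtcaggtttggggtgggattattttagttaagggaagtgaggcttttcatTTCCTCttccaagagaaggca
S100a8: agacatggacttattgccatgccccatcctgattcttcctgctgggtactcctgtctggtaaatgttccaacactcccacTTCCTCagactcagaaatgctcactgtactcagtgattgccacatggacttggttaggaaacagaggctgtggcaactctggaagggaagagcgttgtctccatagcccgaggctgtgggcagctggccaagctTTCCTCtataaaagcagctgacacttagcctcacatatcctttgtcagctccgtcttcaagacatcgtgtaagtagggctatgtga
Cd3e: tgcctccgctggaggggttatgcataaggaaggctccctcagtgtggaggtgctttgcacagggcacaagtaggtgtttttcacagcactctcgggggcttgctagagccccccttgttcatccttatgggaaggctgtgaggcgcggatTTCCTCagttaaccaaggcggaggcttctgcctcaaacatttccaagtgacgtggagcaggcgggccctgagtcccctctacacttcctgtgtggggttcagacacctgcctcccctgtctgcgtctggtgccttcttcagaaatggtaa
Cd79a: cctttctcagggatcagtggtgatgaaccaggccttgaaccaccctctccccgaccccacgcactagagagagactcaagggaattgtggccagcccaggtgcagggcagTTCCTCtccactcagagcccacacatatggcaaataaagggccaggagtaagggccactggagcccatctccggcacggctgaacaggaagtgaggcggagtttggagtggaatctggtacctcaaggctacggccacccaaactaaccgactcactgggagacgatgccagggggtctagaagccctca

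Of the 28 genes with a window, 5 held a summit in it in the immobilized library (17.9%), 4 in the non-immobilized library (14.3%) and 1 at day 0 (3.57%). Over the 16457 autosomal protein-coding genes with a window, the shares were 46.1%, 45.6% and 46.4% in the same order. The 5 genes were Irf8, Coro1a, Kit, Cd68 and S100a8, the 4 were these without S100a8, and the 1 was Irf8. In Coro1a, which encodes the actin regulator coronin 1A, the day 0 summit lay 54 bases after the most upstream listed start and so just past the window. Within 1 kb of a start, 7, 5 and 2 of the 28 genes had a summit in the immobilized, non-immobilized and day 0 libraries. The shares of all genes by that wider rule were 61.4%, 61.5% and 60.2%. Among the markers, Ikzf1 came in by the wider rule in both day 7 libraries and Laptm5 in the immobilized one. In each library the share among the markers was thus below that among all genes, by either rule. No window of the T cell receptor partners Cd3d, Cd3e and Cd3g, of Cd8a, of the B cell receptor partner Cd79a, of the macrophage lysozyme Lyz2, of the neutrophil elastase Elane or of the mast cell protease Cpa3 had a summit within 1 kb in any library.

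**Figure D1:**
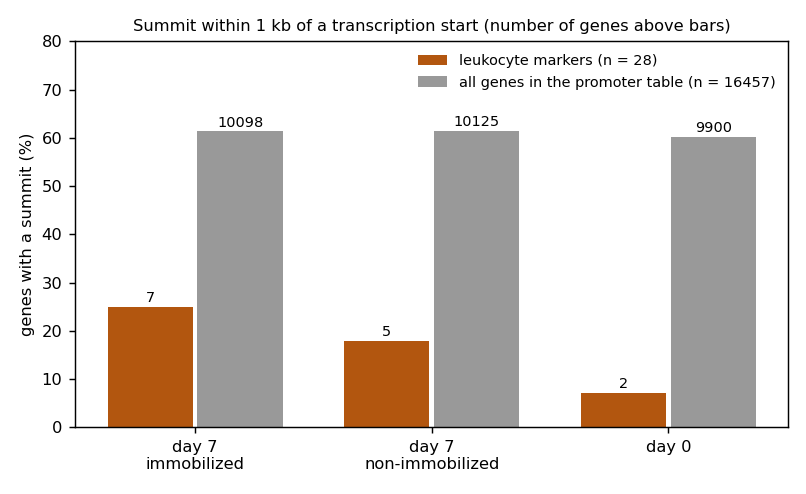
Percent of genes with a summit within 1 kb of a listed transcription start, by library, for the 28 leukocyte markers with a RefSeq start and for all 16457 such genes, with the number of genes above each bar. The markers reach 7, 5 and 2 genes in the immobilized, non-immobilized and day 0 libraries, below all genes in each.

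The promoter windows of the markers were poorer in CpG than those of all genes. The 35 member windows, since some genes have more than 1 start, had a median of 5 CpG dinucleotides against 14 over all 20085 windows. The 6 member windows with a summit had a median of 19.5 CpG, and the 29 without had 4. The 6 came from 5 genes, because Kit has overlapping windows with 20 and 21 CpG. Over all genes the medians were 23 with a summit and 4 without, so the medians of the markers lay near those of all genes within each class. Irf8 had the most CpG among member windows with a summit, 38, while Cd68 and S100a8 had a summit with 4 CpG each. Ikzf1 had 52 CpG in its first window and no summit inside it. GAGGAA was found on either strand in 20 of the 35 member windows (57.1%) and in 27.2% of all windows. Of the member windows with a summit, 4 of 6 held it, with Kit counted by each of its windows, and of those without, 16 of 29. The AP-1 sequence TGANTCA was in 1 member window, that of Cd68 (2.86%, against 7.06% of all windows). The Runx sequence TGTGGT was in 20% against 14.8%, the GC box GGGCGG in 37.1% against 47.0%, and the TATA box TATAAA in 17.1% against 12.7%. None of these matches overlapped a GAGGAA match in the member windows. A match is a description of the letters and not a binding site.

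Over the whole 50 kb neighbourhood, 23 of the 38 genes had at least 1 region in the immobilized library (60.5%), 20 in the non-immobilized library (52.6%) and 17 at day 0 (44.7%). The shares of all genes were 69.3%, 68.5% and 67.9%. Gene length and gene density were not matched. In all, 24 genes had a region in some library (63.2%, against 73.2% of all genes), and 15 had 1 or more regions called in all 3 libraries. For these 15, the same share over all genes was not counted. The other 14 of the 38 had no region in any library: Cd53, Cd3e, Cd3g, Cd8a, Cd79a, Cd79b, Ms4a1, Csf3r, Adgre1, Lyz2, Cd163, Fcer1g, Elane and Cpa3. Of these 14, only Adgre1 (2 regions) and Cd163 (1 region) gained a region when the lists were taken as deposited, both in the immobilized library. Of the 75 regions, 27 (36.0%) were called in all 3 libraries, against 48.5% of the 51392 regions of all genes. Regions called in both day 7 libraries and not at day 0 made up 10 of 75 (13.3%, against 8.30% over all genes). Regions of the immobilized library alone numbered 10 (13.3%, against 11.1%), of the non-immobilized library alone 13 (17.3%, against 10.2%), and of day 0 alone 9 (12%, against 12.2%). Of the 75, 38 regions lay inside the body of their own gene and 37 outside any protein-coding gene, and 15 (20%) lay within 1 kb of a gene end, against 27.1% of the regions of all genes.

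**Figure D2:**
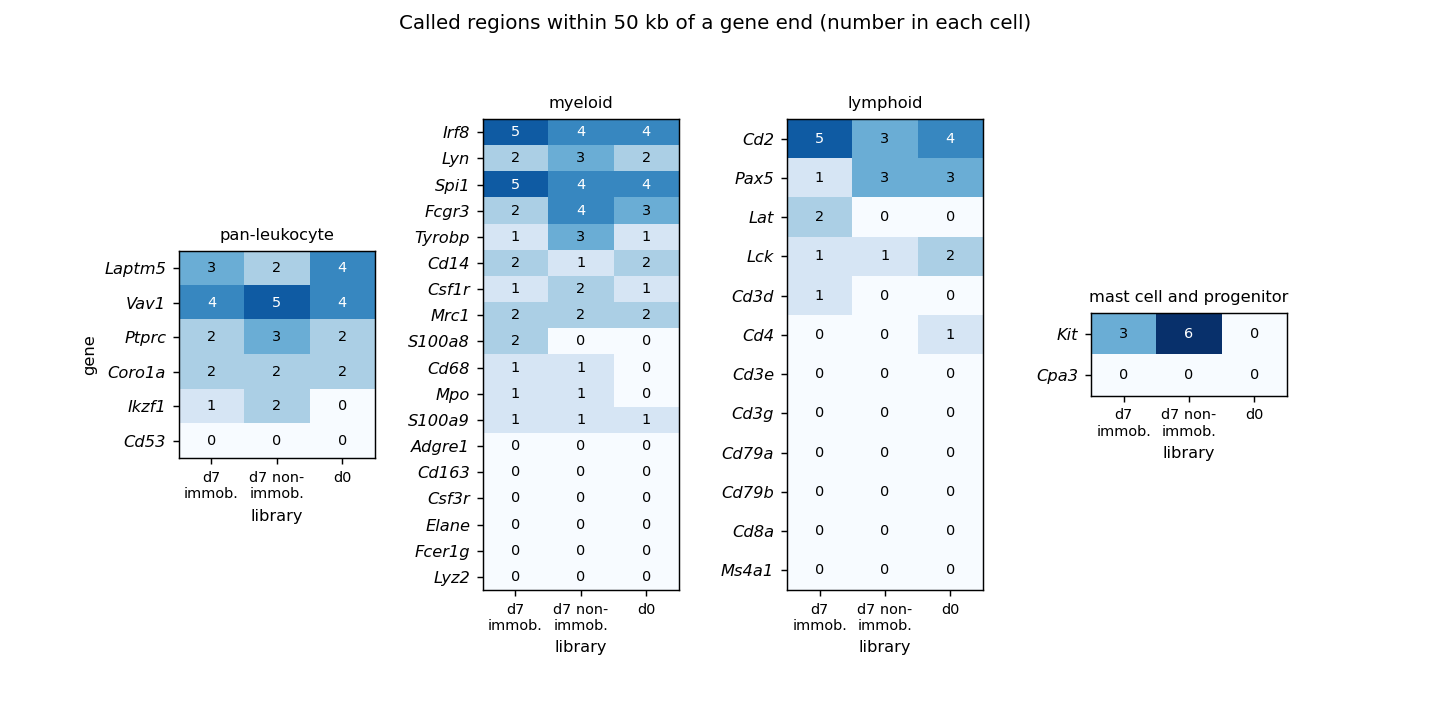
Number of regions (cells) for each of the 38 genes (rows) in the immobilized, non-immobilized and day 0 libraries (columns), by lineage. Kit has 3, 6 and 0 regions, Irf8 and Spi1 have 5, 4 and 4 each, and 14 genes have none.

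Among the pan-leukocyte genes, regions were called in 5 of 6 (83.3%, against 73.2% of all genes) and most of the strong ones were present in every library. Vav1, which encodes a guanine nucleotide exchange factor of blood cell signalling (chr17:57279100-57329236, mm10), had 4 regions in the immobilized, 5 in the non-immobilized and 4 in the day 0 library. Its 4 shared regions lay 3.48 and 2.07 kb before the start and 55.9 and 56.8 kb after it, past the gene. The first of these ranked at 12.3%, 12.02% and 7.41% of the lists (immobilized, non-immobilized, day 0), where 0% is the best score, and at day 0 it was the best ranked region of all 38 genes. Coro1a had 2 regions, both in all 3 libraries, at ranks of 48.2%, 48.1% and 55.2% for the one at its start. Ptprc, which encodes the leukocyte surface phosphatase CD45 (chr1:138062859-138175756), had 2, 3 and 2 regions. All 3 distinct regions lay between 18.1 and 23.5 kb past the 3′ end of the gene and at least 130.6 kb from its most upstream listed start, and no summit lay within 1 kb of that start. Laptm5, a lysosomal membrane protein of blood cells, had 3, 2 and 4 regions, of which 1 was shared by all. Ikzf1 had 1, 2 and 0 regions, both within 1 kb of a listed start. The region before that start ranked at 93.1% in the immobilized and 78.8% in the non-immobilized list, that is, among the weaker calls, and a day 0 summit stood there in the list as deposited. Cd53, a tetraspanin of leukocytes, had none.

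Of the 18 myeloid genes, 12 had a region (66.7%, against 73.2% of all genes), and 8 of these had 1 or more called in all 3 libraries. By region, 14 of 35 were called in all 3 (40%, against 48.5% of the regions of all genes). Spi1 (chr2:91082374-91115759) had 5 regions in the immobilized library, 4 in the non-immobilized and 4 at day 0. Its 2 best ranked regions were called in all 3 libraries, 1 of them inside the gene at ranks of 29.0%, 23.4% and 26.6% and the other inside it 0.529 kb from an end at 22.9%, 23.0% and 18.8%. A region 0.727 kb from the other end of Spi1 was called in both day 7 libraries (ranks 74.6% and 62.1%) and not at day 0, where the deposited list held no summit there. Irf8 (chr8:120736358-120756694) had 5, 4 and 4 regions. The region at its start ranked at 13.4% in the immobilized, 16.6% in the non-immobilized and 12.2% in the day 0 list, and 2 further regions, 15.8 and 60.1 kb after the start, were also called in all 3. Upstream of Irf8, a region 19.98 kb before the start was called in both day 7 libraries, at the weak ranks of 98.3% and 95.3%, and 1 region 27.0 kb before the start was called in the immobilized library alone at 92.1%. A region 37.0 kb after the start was called at day 0 alone, at 49.7%. The 2 best ranked regions of Spi1 and the start region of Irf8 were thus called in all 3 libraries.

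Receptors of myeloid growth factors and antibodies gave a mixed picture. Csf1r, the receptor of macrophage colony-stimulating factor (chr18:61105572-61131139), had 1 region in the immobilized, 2 in the non-immobilized and 1 in the day 0 library. The shared one, inside the gene 2.95 kb from its boundary at the lower coordinate (61105572), ranked at 46.9%, 23.2% and 77.2%. Fcgr3, a receptor for the constant part of antibodies, had 2, 4 and 3 regions, of which 2 were shared by all libraries. The best of these lay 6.45 kb from the gene and ranked at 9.34%, 15.9% and 13.7%, the best rank of any marker region in the immobilized list. Cd14, a receptor for bacterial lipopolysaccharide, had 2, 1 and 2 regions, all within 1 kb of a gene end. Tyrobp, a signalling adaptor of myeloid and natural killer cells, had 1, 3 and 1 regions. The Tyrobp region 0.054 kb inside an end of the gene was called in the non-immobilized library alone at 93.1%, with a summit in the deposited immobilized list. Mrc1, the macrophage mannose receptor, had 2, 2 and 2 regions, all shared, of which 1 lay 66.1 kb and the other 112.6 kb after the start. Lyn, a Src family kinase also used outside the blood, had 2, 3 and 2 regions, no one of them common to all libraries. The region at 0.084 kb from an end of Lyn was called in both day 7 libraries, at 33.4% and 25.8%, while at day 0 a separate region 0.855 kb from that end was called at 44.3%. The receptors Csf3r, Adgre1 (F4/80) and Cd163 and the antibody receptor chain Fcer1g had none.

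Genes of neutrophil and macrophage granule, lysosome and secreted proteins differed among themselves. S100a8, which encodes a subunit of the neutrophil protein calprotectin (chr3:90669071-90670034), had 2 regions in the immobilized library, 0 in the non-immobilized and 0 at day 0. The region at its start stood 0.056 kb before it at 97.7% of the immobilized list and the other 4.68 kb before it at 85.9%, so both were among the weakest calls kept. Neither deposited list of the other libraries held a summit at either place. Its partner S100a9 had 1 region in each library, 14.5 kb before its start, at 40.7%, 36.3% and 47.5%. Cd68, a lysosomal protein of macrophages, had 1, 1 and 0 regions, with the summit 23 bases before the start in the immobilized library (78.1%) and 85 bases before it in the non-immobilized library (75.4%). Mpo, the neutrophil myeloperoxidase, had 1, 1 and 0 regions, inside the gene 8.36 kb after the start at 56.2% and 50.7%. At day 0 the deposited list held no summit at the Cd68 or the Mpo region. Lyz2 and Elane had no region in any library.

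Lymphoid genes had fewer regions per gene than the pan-leukocyte and myeloid genes in every library, at 0.833, 0.583 and 0.833 per gene in the immobilized, non-immobilized and day 0 libraries. The second list of leukocyte genes described further on had the other order of lymphoid and myeloid genes. It had 1.89, 2 and 1.89 regions per lymphoid gene against 1.12, 0.962 and 0.769 per myeloid gene. Of the 12 lymphoid genes among the 38, 6 had a region in some library (50%, against 73.2% of all genes) and 6 had none. Cd2, an adhesion receptor of T and natural killer cells (chr3:101275908-101287939), had 5, 3 and 4 regions. Of its 6 distinct regions 3 were shared by all libraries, 2 were called in the immobilized library alone, 30.8 and 34.6 kb from the gene at 57.6% and 65.2%, and 1 at day 0 alone. Pax5 had 1, 3 and 3 regions, of which 1, inside the gene 6.19 kb after its start, was shared at ranks of 58.5%, 32.8% and 51.1%. The other Pax5 regions ranked at 91.3% or weaker. Lck, the T cell Src kinase, had 1, 1 and 2 regions, of which the shared one lay inside the gene at 22.1%, 15.6% and 19.8%. Lat, an adaptor of T cell receptor signalling, had 2, 0 and 0 regions, at least 18.1 kb from the gene. Cd3d had 1, 0 and 0 regions, inside the gene 4.83 kb after its start, and a day 0 summit stood there in the list as deposited. Cd4 had 0, 0 and 1 region, and the deposited immobilized list held a summit there. Cd3e, Cd3g, Cd8a and the B cell genes Cd79a, Cd79b and Ms4a1 had 0 regions in all libraries, also with the lists as deposited.

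Kit showed the largest difference of any of the 38 genes. It encodes the receptor for stem cell factor, which marks mast cells and blood progenitors and is also used by melanocytes and germ cells (chr5:75574987-75656722). Kit had 3 regions in the immobilized library, 6 in the non-immobilized library and 0 at day 0. The region at its start, with its best ranked summit 0.044 kb before it, ranked at 60.6% in the immobilized and 34.9% in the non-immobilized list. The regions 21.8 and 65.6 kb after the start ranked at 98.6% and 91.8% in the immobilized list and at 59.0% and 57.7% in the non-immobilized list. A further 3 regions, 0.838, 3.257 and 14.8 kb after the start, were called in the non-immobilized library alone at 66.7%, 79.4% and 89.0%. With the lists as deposited the immobilized library had 5 of the 6, the non-immobilized library 6 and day 0 still 0. Of the 3 regions missing from the immobilized list, 2 thus stood below its reduced length. That list is the longest as deposited, and the source of the difference between the day 7 libraries was not tested. Cpa3, a protease of mast cell granules, had 0 regions in every library. Endothelial genes also had more regions at day 7, with 37, 62 and 25 over 10 genes in the immobilized, non-immobilized and day 0 libraries, and their part in the Kit result was not tested.

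**Figure D3:**
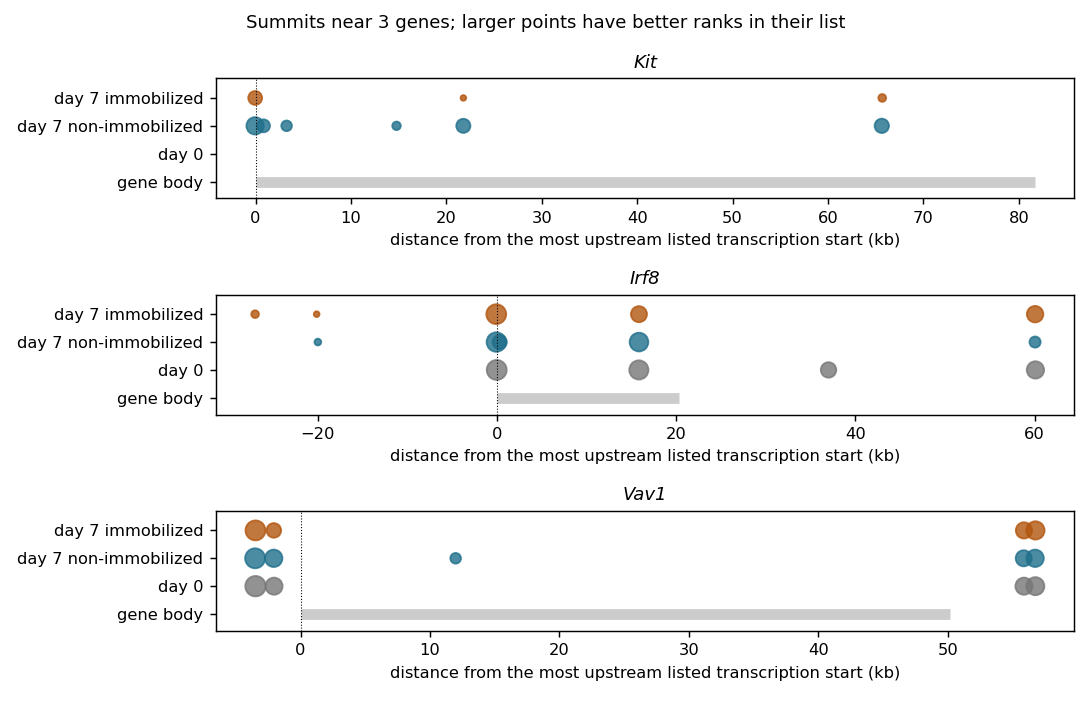
Summits near Kit, Irf8 and Vav1 by distance in kb from the most upstream listed transcription start, in the immobilized, non-immobilized and day 0 libraries, with larger points for better ranks and the gene body as a grey bar. Kit has no day 0 summit, while the strongest summits of Irf8 and Vav1 are present in all 3 libraries.

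Immobilized and non-immobilized cells at day 7 were compared first. Of the 23 markers with a region in either library, 8 had more regions in the immobilized library (34.8%, against 24.5% of 14812 genes). In 9 there were fewer (39.1%, against 22.5%), and in 6 the numbers were equal. The median difference over the 23 genes was 0, as it was over all genes. The regions called in the immobilized library alone numbered 13 and those in the non-immobilized library alone 16, a share of 44.8% (26.4 to 64.3), against 51.7% over all genes. Myeloid genes had 6 and 7 (46.2%, 19.2 to 74.9), pan-leukocyte genes 2 and 4 (33.3%, 4.33 to 77.7) and lymphoid genes 5 and 2 (71.4%, 29.0 to 96.3). The share over all genes lay inside each of these intervals. In the same pair the 7 keratinocyte genes had 27 and 1 and the 10 endothelial genes 4 and 29, and their part in the marker values was not tested. The genes that differed by 2 or more were Cd2, Lat and S100a8 with 2 more in the immobilized library, Pax5, Fcgr3 and Tyrobp with 2 fewer, and Kit with 3 fewer. Of the 16 regions called in the non-immobilized and not the immobilized library, 9 had a summit in the immobilized list as deposited. The non-immobilized list was the shortest and was used whole, so the reverse could not be looked up. With the lists as deposited the pan-leukocyte share was 83.3% and the myeloid share 76.5%, so the side that had more regions turned with list length.

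Against day 0, the immobilized library had more regions in 10 of 24 markers (41.7%, against 27.2% of 14839 genes) and fewer in 5 (20.8%, against 23.1%). The median difference was 0. The regions numbered 20 in the immobilized library alone and 12 at day 0 alone, a share of 62.5% (43.7 to 78.9), against 53.4% over all genes. Myeloid genes had 9 and 4 (69.2%, 38.6 to 90.9), pan-leukocyte genes 3 and 3, and lymphoid genes 5 and 5. Kit had 3 more regions than at day 0, Lat and S100a8 had 2 more, and Pax5 had 2 fewer. Keratinocyte genes had 30 regions in the immobilized library alone and 3 at day 0 alone over 7 genes. The 10 endothelial genes had 20 and 8 (71.4%) and the 15 mesenchymal genes 13 and 28 (31.7%). The part of these 3 sets in the marker values was not tested.

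The non-immobilized library had more regions than day 0 in 10 of 21 markers (47.6%, against 26.1% of 14734 genes) and fewer in 5 (23.8%, against 24.3%). The median difference was again 0. The regions numbered 23 in the non-immobilized library alone and 12 at day 0 alone, a share of 65.7% (47.8 to 80.9), against 51.9% over all genes. Myeloid genes had 11 and 5 (68.8%, 41.3 to 89.0), with 6 genes having more and 1 having fewer. In the same pair the 10 endothelial genes had 45 and 8 (84.9%), all 10 with more regions in the non-immobilized library, and their part in the marker values was not tested. Pan-leukocyte genes had 5 and 3 (62.5%, 24.5 to 91.5). Lymphoid genes had 1 and 4 (20%, 0.505 to 71.6), with 0 genes having more and 3 having fewer. The lymphoid genes of the second list had 17 and 14 (54.8%), with 7 having more and 6 having fewer. Kit had 6 more regions, Ikzf1 and Tyrobp 2 more, and Laptm5 2 fewer. Adding Kit and Cpa3 to the myeloid genes gave 17 and 5 (77.3%, 54.6 to 92.2), an interval that lay above the 51.9% of all genes, so the share past it rests on Kit. Both comparisons with day 0 use the same day 0 library and are not independent.

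**Figure D4:**
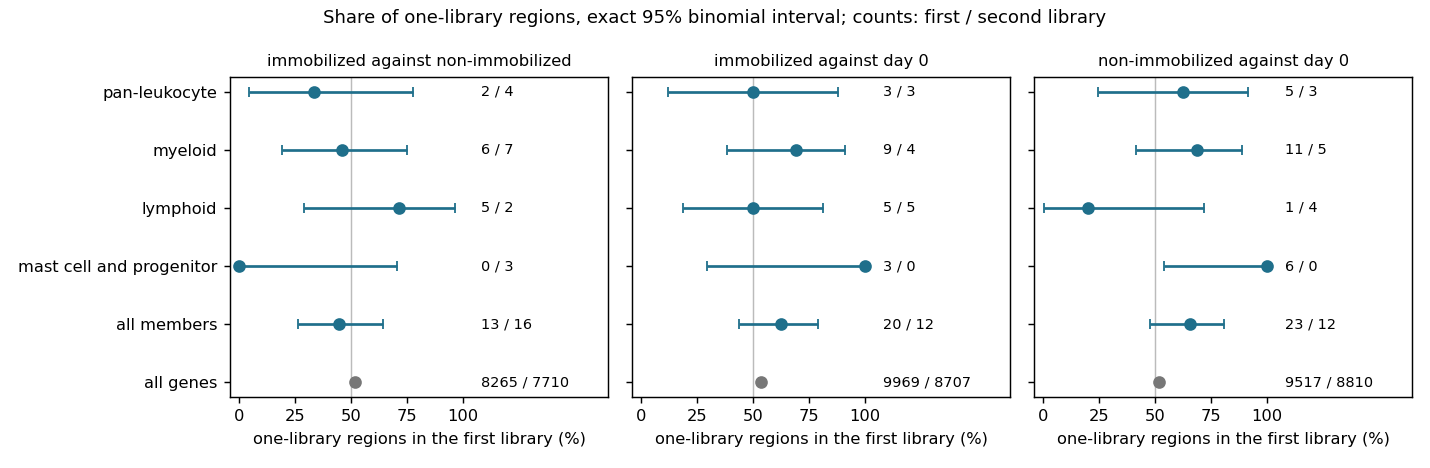
Share of the regions called in only 1 library of a pair that fell in the first-named library, in percent with exact 95% binomial intervals, for each lineage, all 38 markers and all genes, with the counts of the first and second library at the right. The intervals of the pan-leukocyte, myeloid and lymphoid genes take in the value of all genes in all 3 pairs. That of the mast cell and progenitor genes lies above it for non-immobilized against day 0 (54.1 to 100, against 51.9%), with all its regions near Kit.

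Scores placed the marker regions lower in the lists than those of other genes. The median rank of the 50 marker regions in the immobilized list was 53.7%, with 45.2% over all genes, in the non-immobilized list the 53 had 50.7% against 44.1%, and in the day 0 list the 42 had 48.6% against 43.8%. The 27 regions shared by all libraries had medians of 41.9%, 34.6% and 37.0%, against 29.1%, 29.3% and 29.1% for shared regions of all genes. The regions called in 1 library alone stood at medians of 86.1%, 81.0% and 75.2%, against 78.6%, 80.1% and 78.8%. Of the 10 regions of the immobilized library alone, 0 were in the better 50% of the list, against 10.9% over all genes. Of the 13 of the non-immobilized library alone 1 was (7.69%, against 9.63%), near Lyn at 43.8%, and of the 9 of day 0 alone 3 were (33.3%, against 8.03%). The 3 lay near Cd4 (36.7%), Lyn (44.3%) and Irf8 (49.7%).

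**Figure D5:**
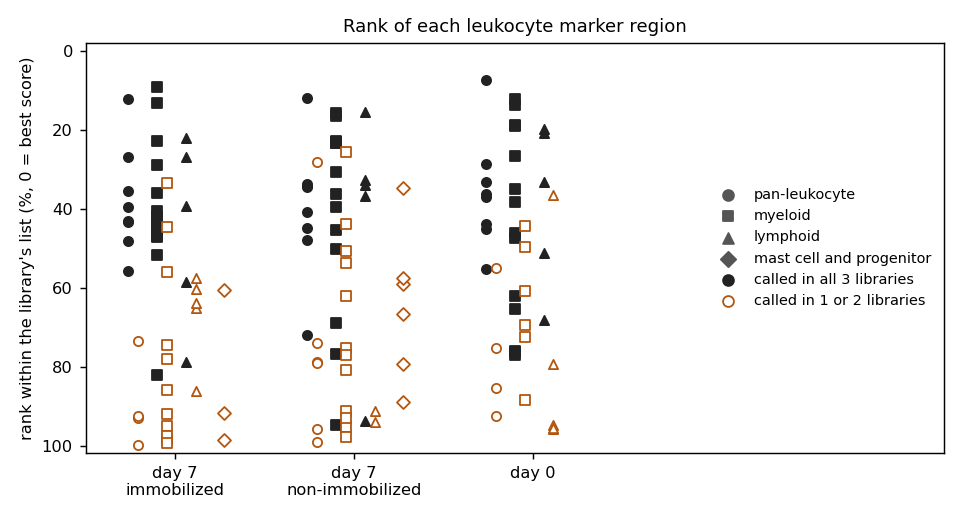
Rank of each marker region within its library's list of 47912 summits, in percent with 0% for the best score at the top, by library and lineage. Filled points, called in all 3 libraries, have medians of 41.9%, 34.6% and 37.0%, and the open ones lie mostly lower.

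A second list of 84 leukocyte genes on the autosomes, none of them among the 38, was read in the same way. Of these, 61 had a region in some library (72.6%, against 73.2% of all genes) and 23 had none, among these last Itgam, Itgax, Ccr2, Ly6g, Marco and Cd86 of myeloid cells and Gzmb and Rag2 of lymphoid cells. More regions in the immobilized than the non-immobilized library were seen in 24 of 57 genes (42.1%, against 24.5% of all genes) and fewer in 17 (29.8%, against 22.5%). Against day 0 the immobilized library had more in 25 of 58 (43.1%, against 27.2%) and fewer in 16 (27.6%, against 23.1%). The non-immobilized library had more than day 0 in 22 of 55 (40%, against 26.1%) and fewer in 18 (32.7%, against 24.3%). By lineage (pan-leukocyte, myeloid, lymphoid), the immobilized share against the non-immobilized library was 75% (55.1 to 89.3), 62.5% (35.4 to 84.8) and 45.9% (29.5 to 63.1). The members had 33.3%, 46.2% and 71.4%, and all genes 51.7%. In that pair the keratinocyte genes had 27 and 1 and the endothelial genes 4 and 29, and their part in these shares was not tested. For non-immobilized against day 0 the shares were 47.4%, 66.7% and 54.8%, where the members had 62.5%, 68.8% and 20%. For immobilized against day 0 they were 63.6%, 76.5% and 50%, where the members had 50%, 69.2% and 50%. A difference of 3 or more in some pair was seen in 10 of the 84 genes, several of which are also used outside the blood. The share of all genes with such a difference was not counted, so the number of these genes cannot be read as particular to leukocyte genes. The transcription factor Runx3 had 6, 3 and 1 regions in the immobilized, non-immobilized and day 0 libraries, Gata3 had 6, 2 and 2, and Cebpa had 5, 3 and 2. The phosphatase gene Ptpn6 had 3, 0 and 0, the integrin chain Itgb2 had 5, 4 and 2, the lipid phosphatase Inpp5d had 6, 5 and 3, and Runx1 had 9, 6 and 7. Toward day 0 stood Cd28 with 2, 4 and 6 and Lcp2 with 0, 1 and 3, while the B cell and adipocyte factor Ebf1 had 5, 9 and 6. The 7 further mast cell genes had 6, 7 and 3 regions. Against day 0, 3 regions were called in the immobilized library alone and 4 in the non-immobilized library alone, and 0 at day 0 alone in either pair. Gata2 had 3, 4 and 2, Hdc 1, 2 and 1, the protease Cma1 1, 1 and 0 and the protease Tpsb2 1, 0 and 0, while Fcer1a, Ms4a2 and Mcpt4 had 0 in every library.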

How the data were processed

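ATAC-seq summits of 3 libraries, 1 per group, were used. Per the submitters' processing notes, reads were handled with Trim Galore, Bowtie2 (2.3.4.1), Picard, SAMtools (1.2) and MACS2 (2.1.2) on mm10, with no parameters given. The deposited summit lists hold 1 score per summit, which by the MACS2 layout is a −log10 p or q value, but whether p or q is not given in the sources used here. Run statistics deposited by the authors gave read counts, the aligned percent and the duplicate fraction of each library. Peaks were called per library, and lists held chromosomes 1 to 19 as used here. Each list was cut by score to its 47912 best summits, summits were widened by 250 bp, and windows that overlapped or adjoined were merged. Regions were assigned to the nearest protein-coding gene end within 50 kb in the RefSeq annotation of GRCm38.p6. Regions of a pair were counted as called in the first library only, the second only or both, with exact 95% binomial intervals from scipy 1.17.1. Peaks in PCR-amplified libraries are not independent molecules, so intervals cover counting error only. The counting was tested on simulated data. The members and lists were chosen with earlier results of these data known. Genes named with values were those differing by 2 or more regions in a pair, those with a region in all 3 libraries, and a few named whatever their values, with a difference of 3 or more for the other leukocyte genes. Cd68, Mpo, Lyn, Cd3d and Cd4 and the other genes listed at 0 were named after their values were seen. Promoter windows were not found for 10 of the 38 genes.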

Additional observations from a re-analysis of the deposited data

Results flagged for a closer look

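For Cd2, the immobilized library had 1 more region than day 0, while the non-immobilized library differed from day 0 by -1. For Fcgr3 the signs were the other way round, with -1 in the immobilized and 1 in the non-immobilized library. The 2 day 7 libraries thus moved in opposite directions from the same day 0 library. The difference was not tested. The Cd2 value of 1 is the net of 2 regions of the immobilized library alone and 1 of day 0 alone, and each other value is a single region. Within 10 kb Cd2 had -1 in both comparisons. With the lists as deposited Fcgr3 had 0 for immobilized against day 0.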

How the results depend on the processing

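Of 149 values recomputed under other settings for the shares and the counts of genes, 110 stayed inside the 95% interval of the reported share or within 1.5 times the reported count, and 39 moved past that. Each reported share of the pan-leukocyte, myeloid and lymphoid genes had an interval that took in 50%. For non-immobilized against day 0, Kit and Cpa3 had 6 and 0 regions (100%, 54.1 to 100), all of them near Kit. With these genes added, the myeloid interval of that pair lay above 50% (54.6 to 92.2), through Kit. Regions are not replicates of a condition and each group has 1 library, so no interval, on either side of 50%, settles a direction. Shares crossed 50% for immobilized against non-immobilized in pan-leukocyte genes (reported 33.3%), myeloid genes (reported 46.2%) and lymphoid genes (reported 71.4%, and 33.3% by gene body), and for immobilized against day 0 in myeloid genes (reported 69.2%), at the values below. The cause was not tested except where list length itself sets it. With the lists as deposited, the immobilized share against the non-immobilized library was 83.3% for pan-leukocyte and 76.5% for myeloid genes. Genes with more and fewer regions then numbered 15 and 4 of 26 against the non-immobilized library, where 47.8% and 7.9% of all genes did so, and 17 and 1 of 26 against day 0 (44.3% and 12.7% of all genes). In the 23956 best summits the immobilized share was 75% for myeloid and 0% for lymphoid genes against the non-immobilized library, and 0% for lymphoid genes against day 0. Genes with more and fewer regions were then 3 and 4 of 17 (immobilized against non-immobilized, 15.8% and 16.1% of all genes). Against day 0 they were 4 and 3 of 16 in the immobilized library (18.2% and 16.8% of all genes). Fewer in the non-immobilized library than at day 0 were found in 3 of 18 (17.2% of all genes). At that length 2, 3 and 1 of the 28 genes had a summit within 1 kb of a start in the immobilized, non-immobilized and day 0 libraries. The shares of all genes were 55.5%, 55.4% and 54.2%, and this setting was chosen after seeing the data. Within 10 kb, and by the gene body that holds the summit, the pan-leukocyte share against day 0 was 100% for both day 7 libraries. More regions in the immobilized than the non-immobilized library were found within 10 kb in 5 of 20 genes (17.9% of all genes). The gene body rule gave 4 of 18 (21.5% of all genes). By gene body the lymphoid share of the immobilized library against day 0 was 16.7%. In that pair 3 of 17 markers had fewer (23.1% of all genes). With regions over 1 kb from any gene end, 6 of 20 genes had more in the immobilized library than at day 0 (34.7% of all genes). With summits widened by 500 bp the lymphoid share of the non-immobilized library against day 0 was 0%. Counting only strong summits absent from the other deposited list, the shares were 100% (pan-leukocyte, non-immobilized against day 0), 33.3% (myeloid, immobilized against day 0) and 0% (lymphoid, non-immobilized against day 0). Genes with more and fewer were then 1 and 1 of 20 (immobilized against non-immobilized, 5.21% and 2.54% of all genes). Against day 0 they were 0 and 1 of 19 in the immobilized library (8.9% and 2.9% of all genes). In the non-immobilized library they were 3 and 2 of 19 against day 0 (9.1% and 5.52%). Without Laptm5 the pan-leukocyte share was 0% for immobilized against non-immobilized and 100% for non-immobilized against day 0, and without Pax5 the lymphoid share of the non-immobilized library against day 0 was 0%. Some shares had no single-library region left under the strong-summit rule and give no value. Of 243 values of single genes, 172 stayed, 67 moved and 4 reversed. Laptm5, with -1 for immobilized against day 0, had 1 with the lists as deposited, 1 within 10 kb and 1 by gene body, and Cd2, with 1, had -1 within 10 kb. With 1 library per group, no paired analysis was possible, and library and condition differences cannot be told apart.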
